A study of Mus musculus with 15 samples.

Results

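Fatty acid oxidation and lipolysis genes were examined in CD4+ T cells that had expanded in vivo with or without the catalytic subunit AMPKα1. The set comprised 36 genes chosen by symbol from the 55421 genes counted, and all 36 symbols matched an identifier. WT donor cells carried floxed alleles of the AMPKα1 gene (Prkaa1 fl/fl) without a Cre, and KO donor cells carried the same floxed alleles together with CD4-Cre, which deletes in all T cells that have passed through the CD4-expressing stage of thymic development. The strain was C57BL/6. Naive CD4+CD25-CD44-CD62L+ cells of either genotype were transferred into Rag2-/- recipients, which have no T or B cells of their own and develop colitis, and CD4+ T cells were recovered from spleen and mesenteric lymph nodes (mLN) after 6 weeks. The 15 samples comprised 4 WT spleen, 4 KO spleen, 3 WT mLN and 4 KO mLN samples. The authors describe the sequencing as a single experiment with 4 mice per group. The labels give each sample a number and do not name the mouse, so p-values measure the spread between these samples. The main organ comparisons did not pair samples by number.

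Long-chain fatty acids are activated to acyl-CoA, passed into mitochondria by the carnitine shuttle and shortened by repeated rounds of β-oxidation, each of which consists of a dehydrogenation, a hydration, a second dehydrogenation and a thiolytic cleavage. The electrons of the first step reach the respiratory chain through the electron transfer flavoproteins, and peroxisomes shorten acyl chains that mitochondria handle poorly. Lipolysis releases the fatty acids from stored triglycerides and cholesteryl esters. AMPK is known to phosphorylate acetyl-CoA carboxylase, which lowers malonyl-CoA and relieves the inhibition of carnitine palmitoyltransferase, so that its best known control of this catabolism acts on enzyme activity and not on transcript level. Naive and memory T cells are known to draw on fatty acid oxidation more than effector T cells do.

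Reads counted on genes ranged from 9363940 to 11283439 per sample, and 22949 to 32097 of them fell on the 36 genes. Levels are given as CPM (counts per 1000000 reads on genes, scaled by the TMM method over all samples), with the SD over the samples of a group. Prkaa1 had 46.7 to 53.4 CPM in WT and 18.4 to 21.2 CPM in KO spleen (log2 fold change −1.33, SE 0.082, adjusted p = 7.63e-05 in edgeR's quasi-likelihood test). In mLN it had 50.9 to 60.6 CPM in WT and 21.4 to 32.3 CPM in KO (log2 fold change −0.95, SE 0.16, adjusted p = 0.0372). Red cell transcripts set 3 libraries apart, since Hbb-bs was 1007 CPM in WT spleen replicate 3, 449.1 CPM in WT spleen replicate 4 and 442.5 CPM in WT mLN replicate 4, against at most 59.3 CPM elsewhere. The 8 CD4+ T cell markers summed to 6943 to 9247 CPM. The 8 myeloid markers summed to 192 to 595 CPM in spleen and 98.7 to 268 CPM in mLN, with none of them at 0 throughout. The sum hides differences between markers. In spleen, C1qb was 2.68 to 7.89 CPM in WT and 12.5 to 41.2 CPM in KO. Log2 fold changes of KO against WT spleen were above 0 for C1qb (1.93), C1qa (1.85), Adgre1 (1.42), Csf1r (0.89), Cd68 (0.65) and Lyz2 (0.083). They were below 0 for Itgam (−0.48) and S100a8 (−0.70), and none of the 8 had an adjusted p under 0.05. Cd8a was between 0.0972 and 1.63 CPM in spleen, 5.76, 8.46 and 0.305 CPM in WT mLN and 16.5 to 23.1 CPM in KO mLN, whereas Cd8b1 was 3.05 to 7.01 CPM in WT and 1.49 to 6.99 CPM in KO mLN (log2 fold changes of KO against WT 1.93, adjusted p = 0.166, and −0.060, adjusted p = 0.968). Of the markers of other cells, Acta2 was called higher in KO spleen (1.60, adjusted p = 0.0448) and Acta2 (2.67, adjusted p = 0.0326), Myh11 (4.63, adjusted p = 0.0326) and Pax5 (4.40, adjusted p = 0.0372) in KO mLN, where they reached at most 7.53, 8.52 and 4.42 CPM. All 7 adipocyte markers averaged under 1 CPM. The part of these transcripts in the results was not tested, and in such bulk samples a change in the mix of cells cannot be told apart from a change within cells.

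All 36 genes were transcribed in every sample and passed the filter on low counts in every comparison. Together they took up 0.241% to 0.255% of the reads on genes in WT spleen, 0.238% to 0.241% in KO spleen, 0.271% to 0.281% in WT mLN and 0.267% to 0.289% in KO mLN. The share in each mLN sample was thus above that in each spleen sample. Per kilobase of exon, the highest level averaged over the 4 groups belonged to Acot7 with 114 CPM per kb, a cytosolic acyl-CoA thioesterase. Etfa, a subunit of the electron transfer flavoprotein, followed with 89.8 CPM per kb, the peroxisomal carnitine octanoyltransferase Crot with 87.7, and very long-chain acyl-CoA dehydrogenase Acadvl with 67.2. At the other end stood the peroxisomal bifunctional enzyme Ehhadh with 2.45 CPM per kb, hormone-sensitive lipase Lipe with 2.43, monoacylglycerol lipase Mgll with 1.69 and the long-chain acyl-CoA synthetase Acsl3 with 0.713. The carnitine palmitoyltransferases Cpt1a (17.1 CPM per kb) and Cpt2 (9.16 CPM per kb) ranked 24 and 29 of 36. The lowest-ranked lipases and Acsl3 rested on few reads, since Acsl3 had 11 to 73 raw counts per sample. Some members share exonic bases with another gene, so their counts are less certain: Acad9, Etfb, Acsl3 and Crot with a gene on their own strand, and Acadvl, Hadha, Echs1, Eci2, Etfdh, Acaa1a, Acox3, Crot, Acsl5, Lipe, Mgll and Abhd5 with a gene on the other strand. The strand that was counted is not given in the sources used here.

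**Figure D1:**
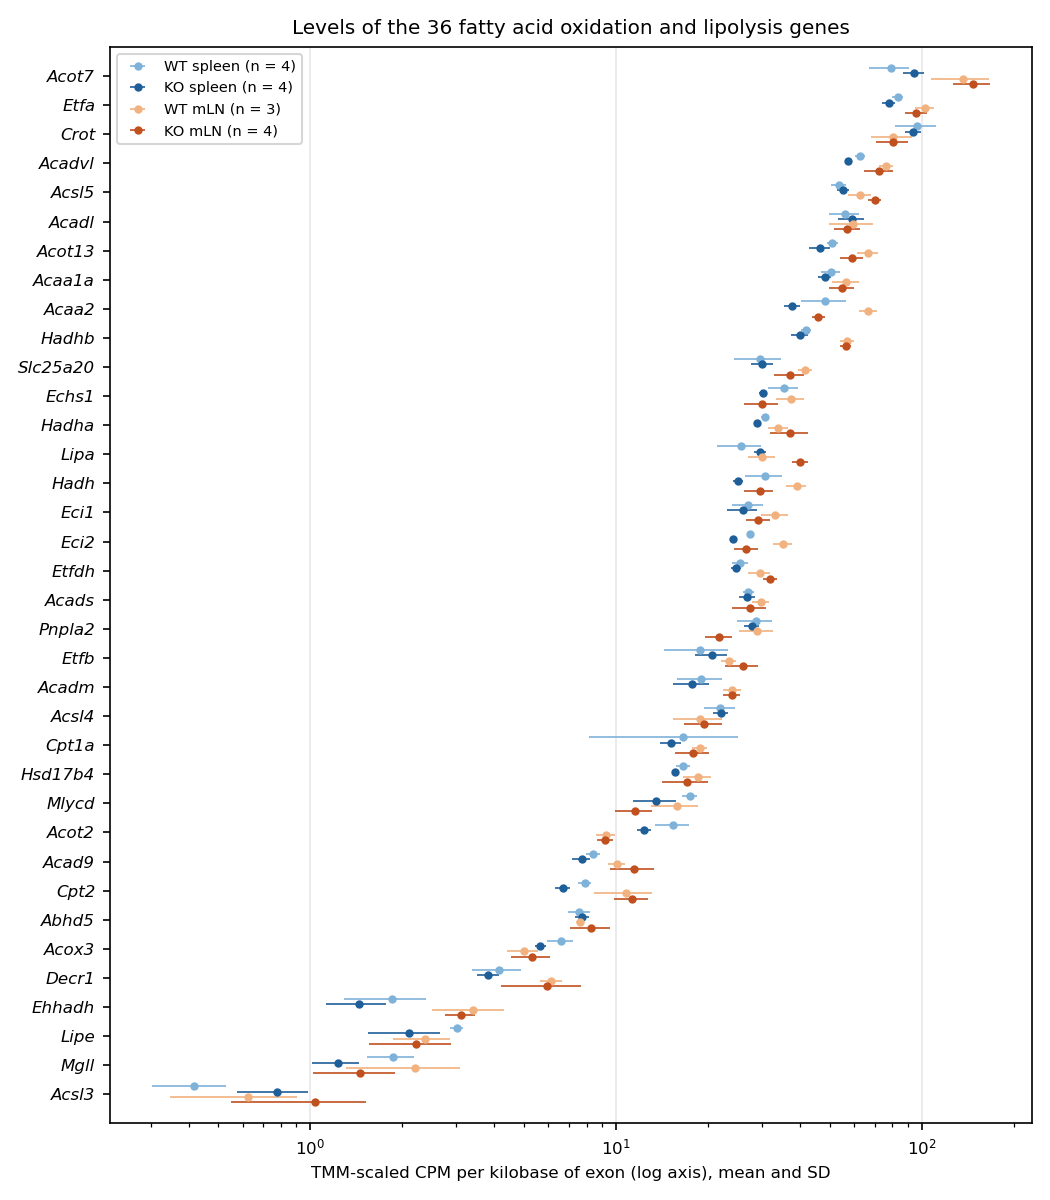
Levels of the 36 genes in TMM-scaled CPM per kilobase of exon on a log axis; points are group means and bars the SD over 4 WT spleen, 4 KO spleen, 3 WT mLN and 4 KO mLN samples. Levels between genes spanned from 0.713 (Acsl3) to 114 (Acot7) as means of the 4 groups. The group means of 1 gene spanned less, for example 0.416 to 1.03 for Acsl3, 1.44 to 3.40 for Ehhadh and 79.0 to 147 for Acot7.

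The largest number of differences lay between the organs. In WT cells, 9 of the 36 genes were higher and 2 lower in mLN than in spleen at an adjusted p under 0.05 in edgeR, and in KO cells 15 were higher and 2 lower. Of all genes tested, 20.5% were called between the organs in WT (9.7% higher, 10.8% lower) and 25.3% in KO (11.4% higher, 13.9% lower). The members called higher were 25% and 41.7% of the set. The median log2 fold change of the 36 genes was 0.225 in WT and 0.247 in KO, beside medians of 0 and 0.0073 over all genes tested. Above 0 lay 30 and 28 of the 36, beside 50% and 50.8% of all genes tested. Genes higher in mLN in both genotypes were Acadvl, Hadhb, Decr1, Etfa, Acaa2, Acot7 and Acot13, and Acot2 was lower in both. These 7 genes made up 77.8% of those higher in WT and 46.7% of those higher in KO. The organ comparisons of both genotypes share no sample, and 32 of 36 genes had the same sign in both (Pearson's r 0.843 and Spearman's rho 0.802 across genes, as a description). The overlap of calls, the shared signs and these correlations were not computed over all genes. They are therefore not shown to be particular to the set. All mLN samples lay above all spleen samples of the same genotype for 14 genes in WT (16.1% of all genes) and 16 in KO (14.2%), and below them for 2 in each (15.8% and 14.6%). Most called organ differences were moderate: 0 of the WT and 1 of the KO calls (Ehhadh) had an absolute log2 fold change above 1.

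The number of calls in WT moved with the samples used. The 11 calls became 3 without WT spleen replicate 1, 5 without WT spleen replicate 2, 6 without WT mLN replicate 1, 5 without WT mLN replicate 2 and 6 without WT mLN replicate 4. Hadhb, Acot2 and Acot7 were called in each of the 7 fits that left out a sample. Without the 3 libraries with red cell transcripts, which left 2 spleen and 2 mLN samples, the called member was Ehhadh and the count 1. The fold changes without these libraries were close in size to those with all samples, at 0.44 for Hadhb (adjusted p = 0.0513), −0.69 for Acot2 (adjusted p = 0.0563) and 0.68 for Acot7 (adjusted p = 0.109). WT spleen and WT mLN samples with the same number deviated together, and with the replicate number as a block 13 genes were higher and 3 lower in WT mLN, the 11 together with Hadh, Etfb, Ehhadh, Acsl4 and Acsl5. Scaling by total reads alone gave 4 higher and 2 lower in WT. In KO cells, where none of those 3 libraries enters, the count was 13 to 18 with each sample left out in turn.

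**Figure D2:**
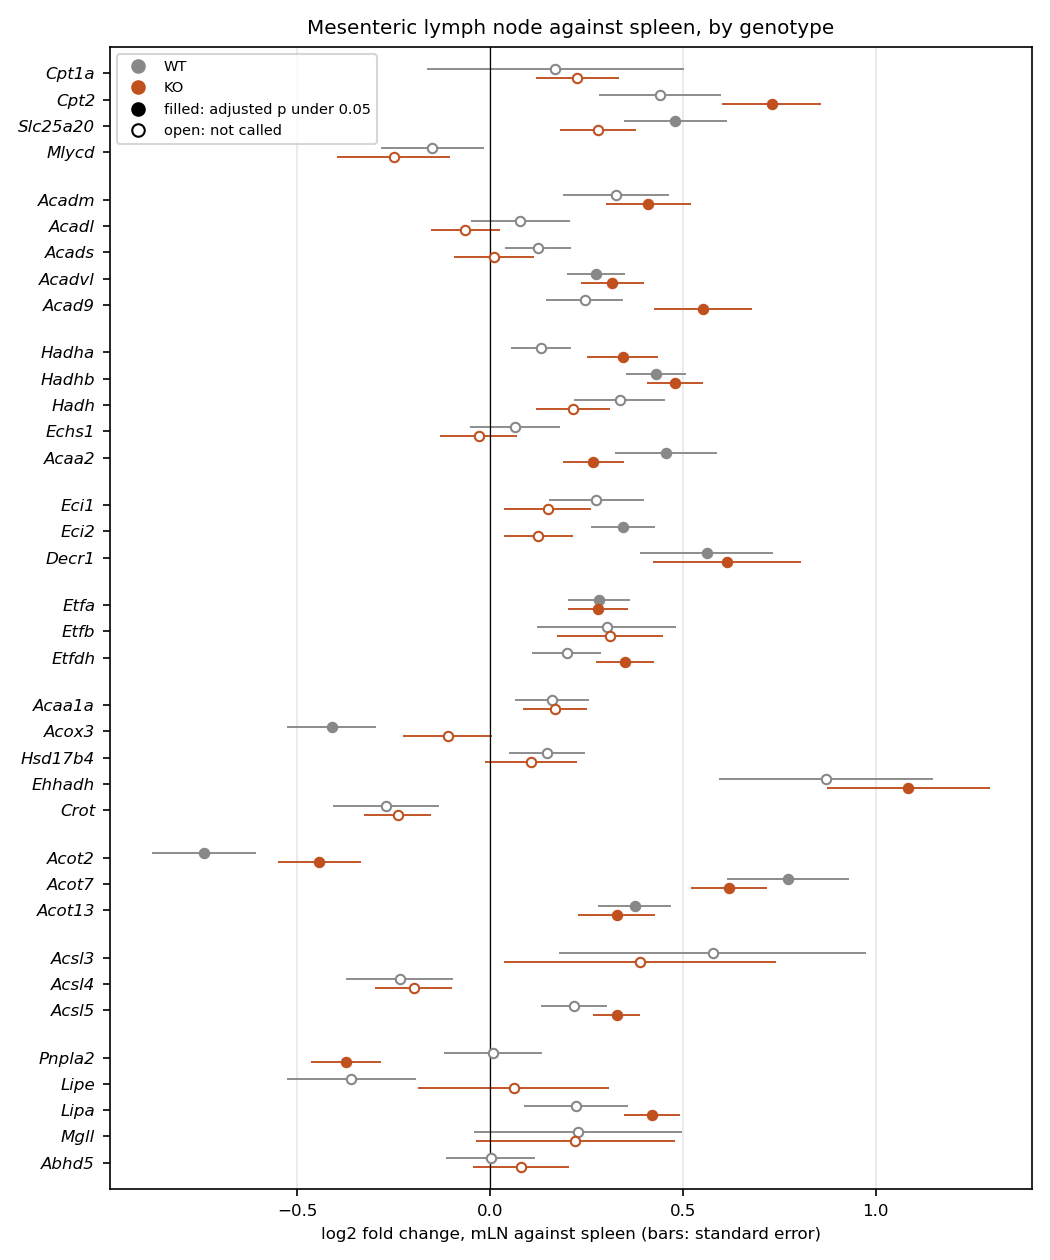
Log2 fold change of each gene in mLN against spleen, for WT (grey) and KO (orange) cells, with the SE as a bar and genes grouped by their step in the pathway; filled points have an adjusted p under 0.05. Most points lie to the right of 0, with Ehhadh farthest right in KO (1.08) and Acot2 farthest left in WT (−0.74).

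Between the genotypes few differences passed the test. In spleen 0 of the 36 genes had an adjusted p under 0.05 in edgeR, where 1.3% of all genes tested were called (0.547% higher and 0.751% lower in KO), and DESeq2 called 0 as well, where it called 5.77% of all genes. An unadjusted p under 0.05 was reached by 13 of the 36, beside 20.5% of all genes, and the lowest adjusted p was 0.116. The log2 fold changes of KO against WT spleen ran from −0.59 (Mgll) to 0.89 (Acsl3) with a median of −0.094, and 28 of 36 lay below 0, where 49.3% of all genes lay above 0. Without WT spleen replicate 3 the count was 1, with Acaa2 lower in KO. In mLN the mitochondrial thiolase Acaa2 was lower in KO and was the called gene of the set, where 0.641% of all genes were called (0.292% lower). The median was −0.054, and 24 of 36 genes lay below 0, where 49.6% of all genes lay above 0. In edgeR 7 of 36 had an unadjusted p under 0.05, beside 15.7% of all genes. DESeq2 called Acaa2 and Lipa, where it called 4.11% of all genes. The Acaa2 call was lost when any 1 of the 7 mLN samples was left out, so the count was then 0, and also without the library with red cell transcripts. For these fits and the one without WT spleen replicate 3, the share of all genes called is not given. Without overlap between the genotypes, 1 gene was higher and 7 were lower in KO spleen (5.94% and 6.08% of all genes), and 2 were higher and 4 lower in KO mLN (6.61% and 7.4%). No gene of the set separated all 8 KO from all 7 WT samples, which 0.428% (higher) and 0.602% (lower) of all genes did. The genotype comparisons and the organ comparisons of the same genotype share samples, so their values are given side by side.

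**Figure D3:**
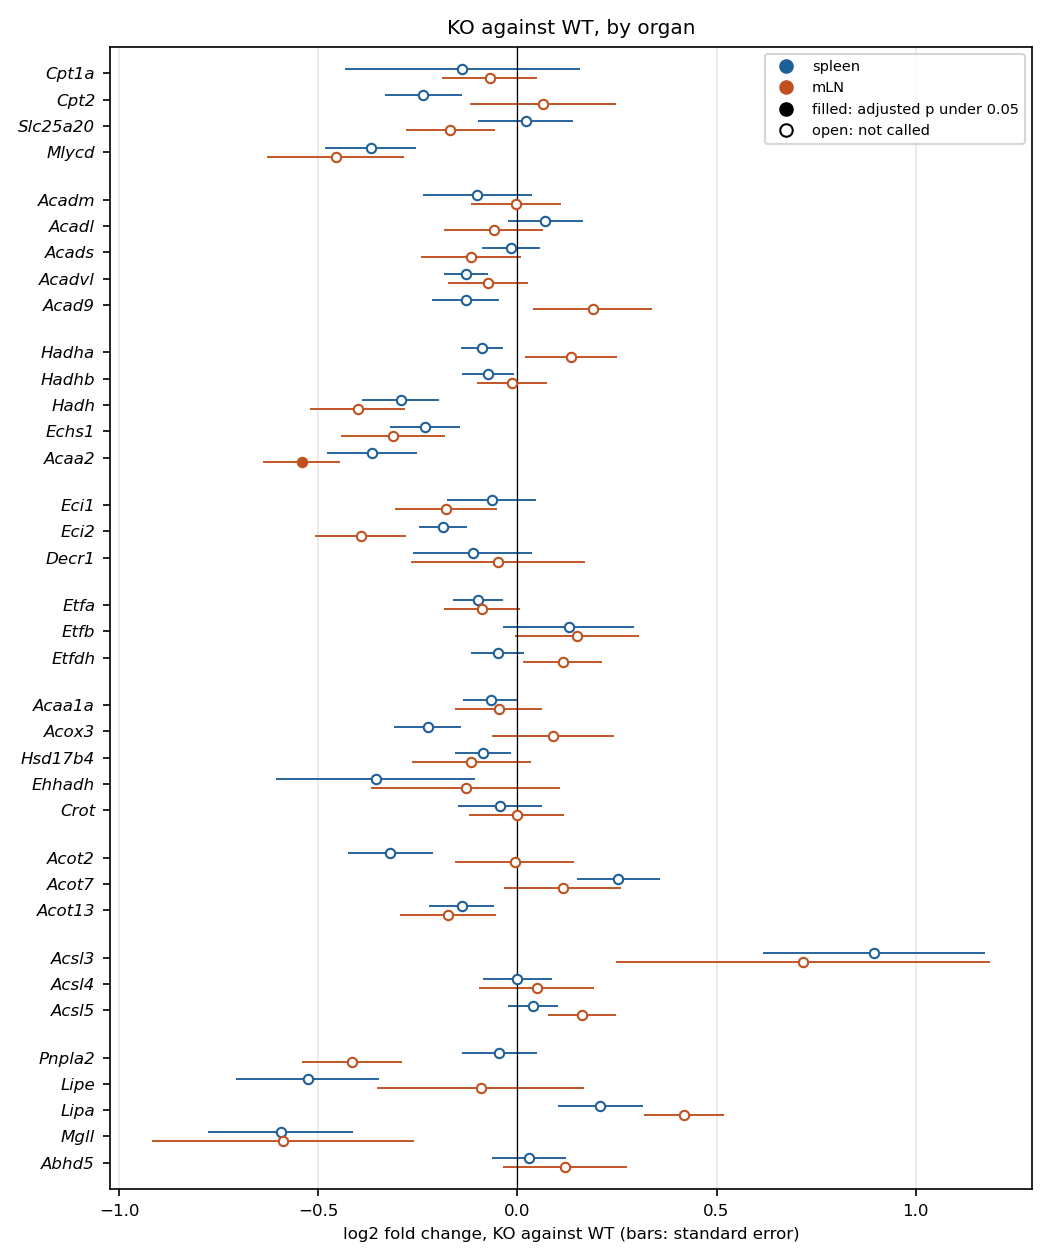
Log2 fold change of each gene in KO against WT cells, for spleen (blue) and mLN (orange), with the SE as a bar and genes grouped by their step in the pathway; filled points have an adjusted p under 0.05. Acaa2 in mLN (−0.54) carries the filled point; Acsl3 lies farthest right (0.89 in spleen) with a wide SE of 0.28.

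Entry into mitochondria begins with Cpt1a (ENSMUSG00000024900, GRCm38 chromosome 19, 3322334 to 3385733), which forms acylcarnitine at the outer membrane and is the step that malonyl-CoA inhibits. Its level was 43.7, 113, 38.7 and 90.6 CPM in the 4 WT spleen samples and 68.1, 69.2, 65.02 and 57.8 CPM in KO spleen. In mLN it was 77.3, 86.1 and 79.4 CPM in WT and 87.4, 65.7, 83.5 and 71.8 CPM in KO. WT spleen held both the lowest and the highest values of all samples, with replicates 2 and 4 high and replicates 1 and 3 low, while the other groups were narrow. The log2 fold change of KO against WT was −0.14 (SE 0.29, adjusted p = 0.833) in spleen and −0.070 (SE 0.12, adjusted p = 0.83) in mLN. Between the organs it was 0.17 (SE 0.33, adjusted p = 0.761) in WT and 0.23 (SE 0.11, adjusted p = 0.147) in KO. None of the 4 passed, and without WT spleen replicate 2 the spleen genotype value was 0.17.

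Slc25a20 carries acylcarnitine across the inner membrane in exchange for carnitine. It had 43.3, 62.9, 46.7 and 57.7 CPM in WT and 48.9, 50.9, 58.7 and 55.5 CPM in KO spleen, and 69.7, 74.8 and 77.4 CPM in WT and 61.04, 61.5, 63.9 and 76.8 CPM in KO mLN. All mLN values lay above all spleen values of the same genotype. The organ difference was called in WT, with a log2 fold change of 0.48 (SE 0.13, adjusted p = 0.0325), and it was 0.28 (SE 0.099, adjusted p = 0.0609) in KO. Cpt2, which returns the acyl group to CoA in the matrix, had 19.1, 18.03, 17.9 and 19.8 CPM in WT spleen and 15.8, 16.04, 14.8 and 16.98 CPM in KO spleen. Its levels in mLN were 26.8, 30.4 and 19.5 CPM in WT and 27.7, 29.4, 21.6 and 28.2 CPM in KO. KO spleen samples were the lowest and did not overlap with any other group, and WT mLN overlapped with WT spleen through its replicate 4. The organ difference in KO was 0.73 (SE 0.13, adjusted p = 0.00178), against 0.44 (SE 0.16, adjusted p = 0.0801) in WT. The genotype difference in spleen was −0.24 (SE 0.096, adjusted p = 0.203) and did not pass. Mlycd, malonyl-CoA decarboxylase, which removes the inhibitor of Cpt1a, averaged 37.1 ± 2.15 in WT spleen, 28.8 ± 4.54 in KO spleen, 33.6 ± 5.87 in WT mLN and 24.5 ± 3.34 in KO mLN (CPM, SD). Its log2 fold change in KO was −0.37 (SE 0.11, adjusted p = 0.12) in spleen and −0.46 (SE 0.17, adjusted p = 0.237) in mLN, neither of which passed.

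**Figure D4:**
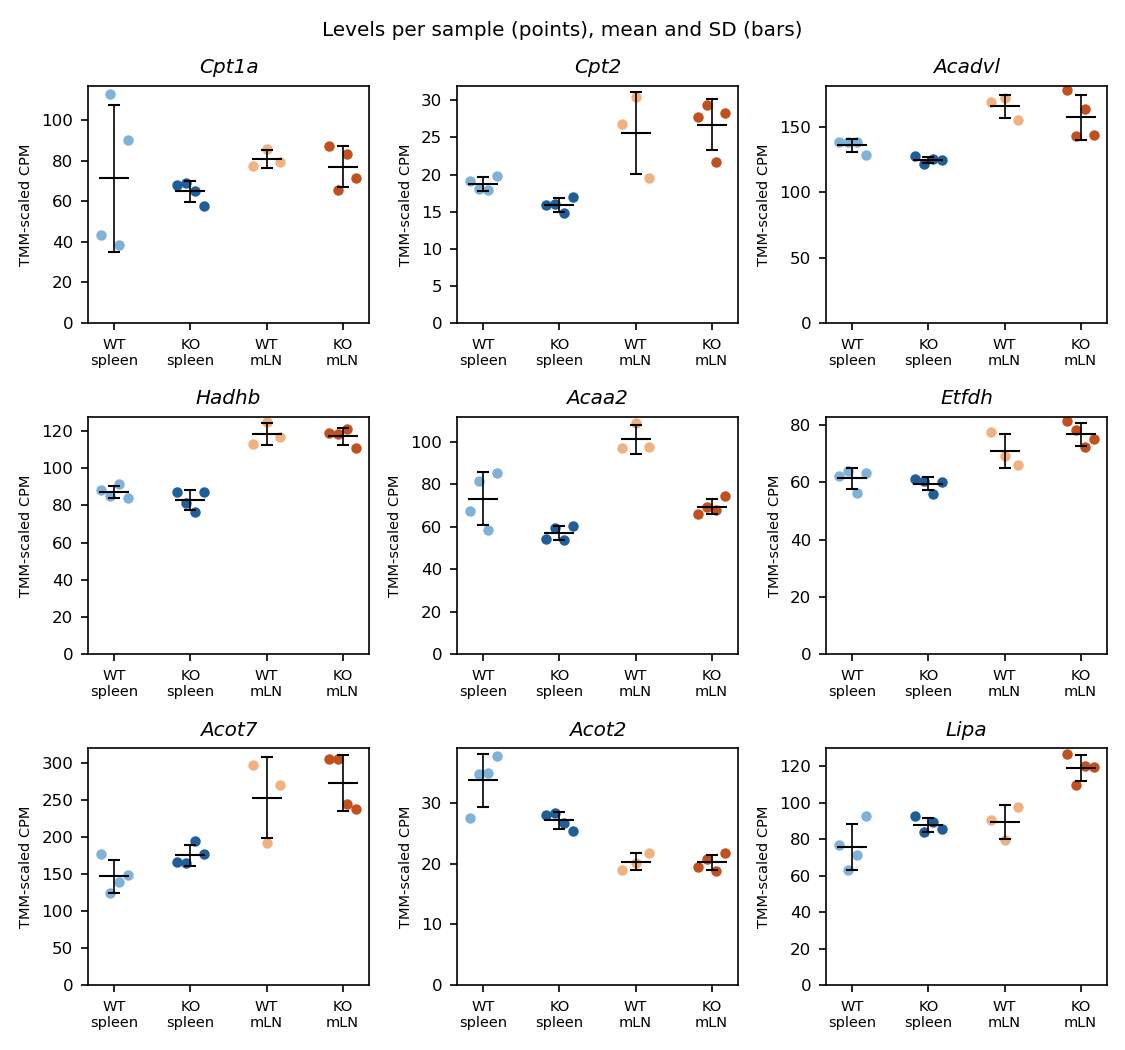
TMM-scaled CPM in each sample (points) of 9 genes, with the group mean and SD as black bars, for 4 WT spleen, 4 KO spleen, 3 WT mLN and 4 KO mLN samples; each axis starts at 0. Hadhb and Acadvl in all mLN samples lie above all spleen samples, Acot2 lies below them, and Cpt1a spreads from 38.7 to 113 CPM within WT spleen.

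Acyl-CoA dehydrogenases catalyse the first step of each round and differ in the chain length they prefer. Acadvl, for very long chains, had 138, 138, 138 and 128 CPM in WT spleen and 127, 122, 125 and 124 CPM in KO spleen, against 169, 172 and 155 CPM in WT mLN and 178, 143, 164 and 144 CPM in KO mLN. Each mLN sample was above each spleen sample, and KO spleen lay below WT spleen without overlap. The organ difference passed in both genotypes, with log2 fold changes of 0.27 (SE 0.075, adjusted p = 0.0316) in WT and 0.32 (SE 0.082, adjusted p = 0.015) in KO. Acad9, a member of the family that is also an assembly factor of respiratory complex I, had 34.1, 35.1, 31.4 and 31.9 CPM in WT and 30.4, 33.2, 28.9 and 28.7 CPM in KO spleen, and 36.6, 41.2 and 40.7 CPM in WT and 53.4, 46.00, 45.4 and 35.4 CPM in KO mLN. Again all mLN samples lay above all spleen samples, with KO mLN replicate 1 highest. Its organ difference was 0.55 (SE 0.13, adjusted p = 0.00861) in KO and 0.24 (SE 0.099, adjusted p = 0.112) in WT. Acadm, for medium chains, averaged 38.8 ± 6.55 in WT spleen, 36.3 ± 4.79 in KO spleen, 49.03 ± 3.29 in WT mLN and 48.9 ± 3.16 in KO mLN (CPM, SD). It was higher in mLN in KO with a log2 fold change of 0.41 (SE 0.11, adjusted p = 0.0181), and in WT the value was 0.33 (SE 0.14, adjusted p = 0.127). Acadl, for long chains, and Acads, for short chains, were not called in any comparison, with log2 fold changes between −0.12 and 0.12 in all 4. In the whole set, Acadm, Acadvl, Acad9, Hadhb and Etfdh were the 5 genes for which all 7 mLN samples lay above all 8 spleen samples (5.34% of all genes did so), and Acot2 was the 1 for which they lay below (6.63% of all genes).

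The promoter sequences of Acadvl and Acadm are shown because both enzymes lay above all spleen samples in all mLN samples and both windows hold AGGTCA, the core sequence that nuclear receptors such as the PPARs recognise. The letters are from RefSeq promoter windows (GRCm38.p6, 250 bases before to 50 after the start), cut to the bases outside GENCODE exons and written 5′ to 3′ on the strand of the gene, with the match in capitals. Acadvl lies at chr11:70015412-70015678 on the minus strand, where the match is read as spelled. Acadm lies at chr3:153944633-153944893 on the minus strand, where the match is read as the reverse complement TGACCT.
Acadvl: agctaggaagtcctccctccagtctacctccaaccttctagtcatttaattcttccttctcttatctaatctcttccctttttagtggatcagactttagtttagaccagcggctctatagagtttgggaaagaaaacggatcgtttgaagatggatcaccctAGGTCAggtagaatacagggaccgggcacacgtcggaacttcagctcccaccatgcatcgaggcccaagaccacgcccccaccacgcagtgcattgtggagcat
Acadm: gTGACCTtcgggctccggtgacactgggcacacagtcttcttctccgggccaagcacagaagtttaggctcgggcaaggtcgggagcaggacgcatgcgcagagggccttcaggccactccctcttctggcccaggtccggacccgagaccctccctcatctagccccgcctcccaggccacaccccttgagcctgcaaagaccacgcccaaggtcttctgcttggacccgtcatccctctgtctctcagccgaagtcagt
Over both strands, AGGTCA was found in the windows of 5 of the 31 members that have one (Abhd5, Acadm, Acadvl, Cpt1a and Echs1) and in 16.3% of 32851 windows of all genes. A member counted if any of its windows matched, whereas the share over all genes is per window. Hadhb and Etfdh, which had the same organ pattern, held no AGGTCA, and Acad9 had no window. Abhd5, Cpt1a and Echs1 held it and were not called between the organs. The E-box CACGTG was found in 2 (Lipe and Mgll; 7.15% of all windows) and CCAAT in 14 (37.4%). Neither of these was found in the windows of Acadvl and Acadm. A match describes the letters and not a bound site.

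Hydration, the second dehydrogenation and thiolysis of long chains are carried out by the mitochondrial trifunctional protein, made from Hadha and Hadhb. Hadhb had 88.00, 85.1, 91.5 and 84.2 CPM in WT and 87.2, 81.3, 76.3 and 87.2 CPM in KO spleen, and 113, 125 and 117 CPM in WT and 119, 118, 121 and 111 CPM in KO mLN. The organs did not overlap and the genotypes did in each organ. The organ difference was 0.43 (SE 0.078, adjusted p = 0.00546) in WT and 0.48 (SE 0.073, adjusted p = 0.000793) in KO, and it passed with each sample left out in turn in both genotypes. Hadha averaged 123 ± 3.74 in WT spleen, 116 ± 1.38 in KO spleen, 136 ± 10.2 in WT mLN and 149 ± 20.9 in KO mLN (CPM, SD). Its organ difference was 0.34 (SE 0.092, adjusted p = 0.0179) in KO and 0.13 (SE 0.078, adjusted p = 0.264) in WT, and all KO spleen samples lay below all WT spleen samples (−0.089 (SE 0.053, adjusted p = 0.375)).

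Both subunits start from a shared intergenic stretch, which is shown for that reason. Hadha is annotated on the minus strand of chromosome 5 (30118304 to 30155162) and Hadhb on the plus strand (30155248 to 30184593), so that the 85 bases at chr5:30155163-30155247 (GRCm38.p6) separate them. They are written 5′ to 3′ in the direction of Hadhb, with GGGCGG, the GC box that Sp1 family factors recognise, in capitals.
Hadhb: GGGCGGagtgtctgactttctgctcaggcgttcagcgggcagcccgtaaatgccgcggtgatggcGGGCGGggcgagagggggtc
GGGCGG occurs 2 times in this stretch as spelled. On either strand it was found in the windows of 25 of the 31 members, beside 35.7% of all windows, and the other motifs searched were not found in the windows of these subunits. Here too, members were counted by any matching window and the background per window, so the 2 shares are unlike measures.

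Acaa2 (ENSMUSG00000036880) encodes the mitochondrial thiolase that acts on medium chains. Its level was 67.7, 81.7, 58.5 and 85.2 CPM in WT spleen and 54.1, 59.6, 53.9 and 60.2 CPM in KO spleen. In mLN it was 96.96, 109 and 97.7 CPM in WT and 66.2, 69.5, 68.02 and 74.3 CPM in KO, so that each KO mLN sample lay below each WT mLN sample. In spleen the groups overlapped, since WT replicate 3, a library with red cell transcripts, lay within the KO range at 58.5 CPM, and replicates 2 and 4 were highest, as they were for Cpt1a. The log2 fold change of KO against WT was −0.54 (SE 0.096, adjusted p = 0.0397) in mLN and −0.36 (SE 0.11, adjusted p = 0.12) in spleen. In mLN it ran from −0.58 to −0.48 with each sample left out, with adjusted p from 0.0538 to 0.168, and over the alternatives that are listed in the closing section the adjusted p ran from 0.000199 to 0.198. Acaa2 was also higher in mLN than in spleen, by 0.46 (SE 0.13, adjusted p = 0.039) in WT and 0.27 (SE 0.079, adjusted p = 0.0287) in KO. Hadh, which dehydrogenates short hydroxyacyl chains, and Echs1, the short-chain hydratase, did not pass in any comparison. Hadh averaged 54.8 ± 7.43 in WT spleen, 44.8 ± 1.71 in KO spleen, 69.6 ± 5.26 in WT mLN and 52.7 ± 5.69 in KO mLN (CPM, SD). All KO mLN samples of Hadh lay below all WT mLN samples, with a log2 fold change of −0.40 (SE 0.12, adjusted p = 0.151). Echs1 had log2 fold changes in KO of −0.23 (SE 0.087, adjusted p = 0.173) in spleen and −0.31 (SE 0.13, adjusted p = 0.278) in mLN.

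Isomerases and a reductase prepare unsaturated chains for oxidation. Eci2, an enoyl-CoA isomerase found in mitochondria and peroxisomes, had 47.5, 48.2, 48.2 and 47.6 CPM in WT spleen, and 41.8, 41.7, 42.7 and 42.5 CPM in KO spleen. Its mLN levels were 61.6, 56.6 and 65.5 CPM in WT and 52.3, 42.6, 46.96 and 44.5 CPM in KO. KO samples lay below WT samples in each organ without overlap, and WT mLN was the highest group. The log2 fold change of KO against WT was −0.19 (SE 0.061, adjusted p = 0.13) in spleen and −0.39 (SE 0.11, adjusted p = 0.142) in mLN, so it did not pass in either. The organ difference passed in WT with 0.34 (SE 0.083, adjusted p = 0.0188) and was 0.12 (SE 0.091, adjusted p = 0.346) in KO. Decr1, dienoyl-CoA reductase, averaged 12.2 ± 2.22 in WT spleen, 11.3 ± 0.903 in KO spleen, 18.2 ± 1.51 in WT mLN and 17.6 ± 5.09 in KO mLN (CPM, SD) and was higher in mLN in both genotypes, by 0.56 (SE 0.17, adjusted p = 0.0467) in WT and 0.61 (SE 0.19, adjusted p = 0.0362) in KO. Eci1, the mitochondrial isomerase, did not pass, with organ differences of 0.28 in WT and 0.15 in KO.

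Electrons pass from the dehydrogenases to the heterodimer of Etfa and Etfb and on to the ubiquinone reductase Etfdh. Etfdh had 62.2, 64.1, 56.2 and 63.5 CPM in WT spleen and 61.2, 60.5, 56.1 and 60.1 CPM in KO spleen, 77.8, 69.3 and 66.2 CPM in WT mLN and 81.6, 78.3, 72.4 and 75.2 CPM in KO mLN. The mLN samples were all above the spleen samples. Its organ difference was 0.35 (SE 0.076, adjusted p = 0.00597) in KO and 0.20 (SE 0.089, adjusted p = 0.147) in WT. Etfa averaged 116 ± 4.74 in WT spleen, 108 ± 5.44 in KO spleen, 142 ± 10.2 in WT mLN and 133 ± 11.2 in KO mLN (CPM, SD), with called organ differences of 0.28 (SE 0.080, adjusted p = 0.0353) in WT and 0.28 (SE 0.078, adjusted p = 0.0222) in KO. The values for Etfb were 0.30 (SE 0.18, adjusted p = 0.271) and 0.31 (SE 0.14, adjusted p = 0.12), close in size to those of Etfa but with wider errors. No subunit passed between the genotypes.

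Peroxisomal genes were divided in direction. Ehhadh, the bifunctional hydratase and dehydrogenase of the classical peroxisomal route, had 3.94, 4.64, 7.74 and 5.64 CPM in WT and 4.32, 4.53, 3.03 and 5.33 CPM in KO spleen, and 8.16, 13.2 and 9.04 CPM in WT and 7.72, 9.75, 9.98 and 9.59 CPM in KO mLN. The organs did not overlap within a genotype. Its rise in KO mLN, 1.08 (SE 0.21, adjusted p = 0.00346), was the largest organ difference of the set, and in WT the value was 0.87 (SE 0.28, adjusted p = 0.0538). The gene is expressed at a low level, with 32 to 134 raw counts per sample. Acox3, an acyl-CoA oxidase for branched chains, had 42.03, 51.5, 42.4 and 44.9 CPM in WT spleen, 38.5, 40.1, 39.8 and 36.6 CPM in KO spleen, 38.02, 30.1 and 34.6 CPM in WT mLN and 29.8, 41.8, 34.4 and 39.5 CPM in KO mLN. WT spleen was above all other groups without overlap. It was lower in WT mLN, with a log2 fold change of −0.41 (SE 0.12, adjusted p = 0.0342), and the value in KO was −0.11 (SE 0.12, adjusted p = 0.525). Crot, which makes carnitine esters of chains that leave the peroxisome, had log2 fold changes of −0.27 (SE 0.14, adjusted p = 0.199) in WT and −0.24 (SE 0.087, adjusted p = 0.0648) in KO mLN against spleen. The thiolase Acaa1a and the multifunctional enzyme Hsd17b4 did not pass, with organ differences from 0.11 to 0.17. Acaa1a has a near-identical copy, Acaa1b, and reads that align to both were not counted. The summed level of the 5 peroxisomal genes was 410.0 to 509 CPM in WT spleen, 434 to 469 CPM in KO spleen, 393 to 475 CPM in WT mLN and 402 to 463 CPM in KO mLN, so the organs overlapped.

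Thioesterases release free fatty acids from acyl-CoA, and all 3 differed between the organs in both genotypes. Acot7 (ENSMUSG00000028937, chromosome 4, 152178134 to 152271855) had 176, 124, 139 and 148 CPM in WT and 166, 165, 195 and 177 CPM in KO spleen, and 297, 192 and 269.9 CPM in WT and 306, 306, 244 and 238 CPM in KO mLN. It was higher in mLN by 0.77 (SE 0.16, adjusted p = 0.0096) in WT and 0.62 (SE 0.099, adjusted p = 0.000982) in KO, and the lowest mLN sample (WT replicate 2) lay just below the highest KO spleen sample. Acot13, a thioesterase associated with mitochondria, had 35.4, 35.5, 38.6 and 37.5 CPM in WT and 33.95, 30.4, 32.7 and 36.7 CPM in KO spleen, and 44.1, 48.7 and 51.3 CPM in WT and 42.8, 43.5, 37.6 and 46.3 CPM in KO mLN. The organ differences were 0.37 (SE 0.095, adjusted p = 0.0227) in WT and 0.33 (SE 0.10, adjusted p = 0.033) in KO. Acot2 (ENSMUSG00000021226, chromosome 12, 83987861 to 83993873), the thioesterase of the mitochondrial matrix, ran the other way. It had 27.6, 34.7, 34.98 and 37.8 CPM in WT spleen and 28.1, 28.4, 26.7 and 25.4 CPM in KO spleen, but 19.01, 20.2 and 21.8 CPM in WT mLN and 19.5, 20.8, 18.9 and 21.7 CPM in KO mLN. All mLN samples lay below all spleen samples. The log2 fold change was −0.74 (SE 0.14, adjusted p = 0.00568) in WT and −0.44 (SE 0.11, adjusted p = 0.0111) in KO. In KO spleen its value against WT was −0.32 (SE 0.11, adjusted p = 0.136) and did not pass, and in mLN it was −0.0069. Acot2 has a near-identical copy, Acot1, which had at most 0.197 CPM, and reads that align to both were not counted.

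Acyl-CoA synthetases activate the fatty acid. Acsl5 (chromosome 19, 55251938 to 55297720), which is found on mitochondria and the endoplasmic reticulum, was the most abundant of the 3, with 246, 220.0, 226 and 216 CPM in WT spleen, 223, 234, 229 and 248 CPM in KO spleen, 284, 273 and 240.5 CPM in WT mLN and 316, 286, 284 and 303 CPM in KO mLN. KO mLN was the highest group and did not overlap with any other, although its lowest sample (284.1) and the highest WT mLN sample (284.0) were nearly equal. It was higher in mLN in KO by 0.33 (SE 0.061, adjusted p = 0.0027), and the value in WT was 0.22 (SE 0.086, adjusted p = 0.105). Acsl3, which acts at the endoplasmic reticulum and on lipid droplets, had 1.87, 1.13, 1.43 and 2.14 CPM in WT and 4.01, 3.49, 2.46 and 2.35 CPM in KO spleen, and 1.34, 3.54 and 2.54 CPM in WT and 2.79, 4.60, 2.37 and 6.55 CPM in KO mLN. KO spleen lay above WT spleen without overlap. Its log2 fold change was 0.89 (SE 0.28, adjusted p = 0.12) in spleen and 0.72 (SE 0.47, adjusted p = 0.516) in mLN, and neither passed. Acsl4, which prefers arachidonic acid, did not pass in any comparison, with organ differences of −0.24 in WT and −0.20 in KO.

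The lipolysis genes showed no common direction. Pnpla2 (chromosome 7, 141455198 to 141460743) encodes adipose triglyceride lipase, which cleaves the first fatty acid from triglycerides. It had 63.4, 81.2, 84.9 and 71.05 CPM in WT spleen and 69.5, 72.9, 70.9 and 78.5 CPM in KO spleen, 70.9, 87.1 and 69.98 CPM in WT mLN and 62.2, 61.7, 53.8 and 50.4 CPM in KO mLN. KO mLN was the lowest group and did not overlap with any other, and the other 3 groups overlapped. It was lower in mLN in KO, with a log2 fold change of −0.37 (SE 0.091, adjusted p = 0.0114), whereas the value in WT was 0.0069 (SE 0.13, adjusted p = 0.977). In KO against WT mLN it was −0.41 (SE 0.12, adjusted p = 0.156) and in spleen −0.046 (SE 0.094, adjusted p = 0.828). Lipa encodes the acid lipase of lysosomes, which releases fatty acids from triglycerides and cholesteryl esters taken up with organelles or lipoproteins. It had 76.5, 62.95, 71.2 and 92.7 CPM in WT spleen and 92.6, 83.6, 89.3 and 85.7 CPM in KO spleen, 90.5, 79.3 and 97.7 CPM in WT mLN and 127, 109.7, 120.1 and 119.5 CPM in KO mLN. KO mLN was the highest group without overlap. It was higher in mLN in KO by 0.42 (SE 0.073, adjusted p = 0.00169), and the value in WT was 0.22 (SE 0.13, adjusted p = 0.276). Against WT mLN it was 0.42 (SE 0.10, adjusted p = 0.0929) in KO mLN, which did not pass here and did in DESeq2. Lipa is abundant in macrophages, and the summed myeloid markers in KO mLN were 103 to 112 CPM, against 98.7 to 268 in WT mLN and 192 to 595 CPM in spleen. Single markers went both ways in KO against WT mLN, and none was called. Log2 fold changes were above 0 for Adgre1 (0.79), Csf1r (0.23) and Cd68 (0.23). They were below 0 for S100a8 (−1.01), Lyz2 (−0.81), C1qa (−0.65) and C1qb (−0.48). The part of myeloid cells in the Lipa values was not tested.

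Mgll, which cleaves monoacylglycerol in the last step, had 8.61, 7.93, 8.03 and 11.3 CPM in WT spleen and 4.42, 6.10, 6.62 and 6.59 CPM in KO spleen, 8.83, 7.48 and 15.4 CPM in WT mLN and 4.09, 8.28, 8.80 and 6.90 CPM in KO mLN. KO spleen lay below WT spleen without overlap, and in mLN the genotypes overlapped. The log2 fold change in KO was −0.59 (SE 0.18, adjusted p = 0.116) in spleen, which was the lowest adjusted p of the set there, and −0.59 (SE 0.33, adjusted p = 0.432) in mLN. Lipe, hormone-sensitive lipase, averaged 16.5 ± 0.792 in WT spleen, 11.5 ± 3.06 in KO spleen, 12.96 ± 2.77 in WT mLN and 12.2 ± 3.63 in KO mLN (CPM, SD), with a log2 fold change in KO spleen of −0.53 (SE 0.18, adjusted p = 0.144) that did not pass. Abhd5, the coactivator of Pnpla2, was within 0.12 log2 units of 0 in every comparison of 2 groups and did not pass.

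Whether the genotype difference itself differed between the organs was tested as an interaction over all 15 samples. Of the 36 genes 0 passed, as did 0 of 15438 genes in edgeR (0% called). DESeq2 also called 0 of the 36 (0.0259% of all genes). At an unadjusted p under 0.05 there was 1 gene of the set, Pnpla2, with a difference of −0.37 on the log2 scale (SE 0.15, adjusted p = 1.0), and 652 of all genes (4.22%). Genes called between the organs in one genotype alone (Slc25a20, Eci2 and Acox3 in WT; Cpt2, Acadm, Acad9, Hadha, Etfdh, Ehhadh, Acsl5, Lipa and Pnpla2 in KO) were therefore not shown to differ between the genotypes.

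Of 80 further genes of fatty acid metabolism listed for comparison, 61 were tested between the organs in WT, where 9 were higher and 6 lower in mLN, and 58 in KO, where 8 were higher and 7 lower, beside 20.5% and 25.3% of all genes called in either direction. Their median log2 fold changes were −0.037 and 0.082, beside 0.225 and 0.247 for the 36 genes. Of the transcription factors and coregulators of oxidation and lysosomal genes, 3 of 12 tested were lower in WT and 4 of 13 in KO and 0 were higher, beside 10.8% and 13.9% of all genes called lower. Ppard, a nuclear receptor for fatty acids, was 8.77 ± 1.42 CPM in WT and 9.40 ± 1.003 CPM in KO spleen, and 4.06 ± 0.653 CPM in WT and 3.86 ± 0.978 CPM in KO mLN (log2 fold change −1.12, SE 0.22, adjusted p = 0.00832 in WT, and −1.30, SE 0.22, adjusted p = 0.00165 in KO). Foxo3 was lower in mLN, with log2 fold changes of −0.95 (adjusted p = 0.00262) in WT and −0.76 (adjusted p = 0.00762) in KO. Ppara had at most 0.206 CPM in any sample, and Cpt1b, the muscle form of Cpt1a, at most 0.269 CPM. Among the genes of lipid droplets, Hilpda, an inhibitor of Pnpla2, was higher in mLN by 0.92 (adjusted p = 0.0074) in WT and 0.63 (adjusted p = 0.033) in KO. The mitochondrial dehydrogenase Hsd17b10 was higher by 0.49 (adjusted p = 0.0109) in WT and 0.44 (adjusted p = 0.00893) in KO. In KO, Acbd3 and Amacr were higher in mLN by 0.73 (adjusted p = 0.00295) and 1.24 (adjusted p = 0.00381), and the carnitine transporter Slc22a5 was lower, at −0.97 (adjusted p = 0.00472). Dbi, which binds acyl-CoA, was higher in mLN by 0.47 (adjusted p = 0.0129) and 0.45 (adjusted p = 0.00681), and of 59 further genes tested it was the 1 called between the genotypes in spleen, where it was higher in KO by 0.38 (SE 0.074, adjusted p = 0.0444). That count of 1 became 0 in 7 of the 8 fits that left out a sample (2 without WT spleen replicate 3), with the replicate block, with all 15 samples in 1 fit and without the libraries with red cell transcripts. For those fits the share of all genes called is not given. In mLN 0 of 60 further genes were called between the genotypes.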

How the data were processed

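RNA of CD4+ T cells from spleen and mLN was sequenced as single-end 75 bp reads from NEBNext low-input libraries. The authors aligned the reads with STAR 2.6.1a to the GRCm38 genome (annotation GENCODE M23) and deposited the raw count of reads per gene of each sample, with reads that align to several places left out. The strand that was counted is not given in the sources used here. The submitters' processing notes also name bcl2fastq 2.19.1.403, RSEM and DESeq2 1.22.2. Of the uniquely aligned reads, 58.4% to 63.4% lay on no gene and stayed out of library sizes. The authors excluded the third WT mLN sample, which was not analysed here.

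Gene names, coordinates and exon lengths (union of exons of basic protein-coding transcripts) came from GENCODE M21 on the same build, where 55154 of the 55421 genes were found. Counts were tested with edgeR 4.0.16 in R 4.3.3 (limma 3.58.1), by the quasi-likelihood test after TMM normalization, on genes that passed edgeR's filterByExpr. Samples were grouped by the genotype and organ in their labels. KO was compared with WT in each organ and mLN with spleen in each genotype, each with the samples of those groups alone, and the interaction over all 15 samples. The Benjamini-Hochberg adjustment covered every gene in a fit, and an adjusted p under 0.05 was called. The SE of a log2 fold change is its size divided by the square root of its F statistic. The spread between samples includes that of amplification, which cannot be separated, since reads carry no molecular identifiers. Each sample pools many cells, so the spread between cells is not measured. Procedures were tested on simulated data with changes larger than most of those reported here. Recovery of changes as small as most of these was not tested. Tables and figures were made with Python 3.11.15, numpy 2.4.6, pandas 2.3.3 and matplotlib 3.10.9.

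The members and lists were chosen with earlier results of these data known. Per-sample values were given for members called in a comparison (the 8 with the smallest p where more were called), for the 3 with the smallest p between the genotypes in each organ, and for Cpt1a and Pnpla2. Of the further genes at most 5 called ones per comparison were named, by the smallest p. One of the further genes is not reported here. Ppara and Cpt1b were named once their values were known. Replicate numbers are those of the labels. Deviations from the group means of WT spleen and WT mLN samples with the same number correlated with r of 0.258, 0.243 and 0.291, each above 0.1, so these numbers were taken as pairs; for KO the values were 0.041, 0.17, 0.026 and 0.26. Alternatives were DESeq2 1.42.0, RLE normalization, total reads alone, no filter, at least 10 counts in every sample, an absolute log2 fold change above 1, 1 fit of all 15 samples, a block for the replicate number, and each sample left out. Leaving out the 3 libraries with Hbb-bs above 400 CPM was chosen after seeing the data.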

Additional observations from a re-analysis of the deposited data

Results flagged for a closer look

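Of 108 groups of 4 samples, 3 had a sample that stood apart from the others of its group, beside about 1 in 20 that chance gives. Acadvl in WT spleen was 128.5 CPM in replicate 4 and 138.3 to 138.4 CPM in the other 3, so that a gap of 0.983 of the whole range rested on 3 nearly equal values. Echs1 in KO mLN was 55.64 CPM in replicate 1 against 43.15 to 44.38 CPM in the others (0.901 of the range). Etfb in WT spleen was 22.75 CPM in replicate 3 against 14.32 to 15.36 CPM (0.877 of the range), and this replicate had the highest Hbb-bs level of all samples, 1007 CPM; the part of red cell transcripts in it was not tested.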

How the results depend on the processing

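Counts of called genes among the 36 moved with several choices, and the cause was not tested. The share of all genes called is given for the main fits and, in the genotype comparisons and the interaction, for DESeq2. For the other alternatives it is not given, so their counts are not shown to be particular to the set. In KO against WT spleen (0 called), no filter on low counts gave 2, both lower in KO (Acaa2 and Lipe), and leaving out 1 sample gave 0 to 1. In KO against WT mLN (1 called), DESeq2 gave 2, no filter 2 and all 15 samples in 1 fit 3, while the replicate block, each fit with 1 sample left out and the fit without the library with red cell transcripts gave 0, and so did the limit of 1 on the log2 fold change. These numbers were not shown to pair WT with KO samples. Between the organs in WT (11 called), total reads alone gave 6, no filter 7, leaving out 1 sample 3 to 9, leaving out the libraries with red cell transcripts 1 and the fold change limit 0. In KO (17 called) the fold change limit gave 1 and the replicate block 19, and no other alternative went outside 13 to 19. The interaction gave 0 in every alternative.

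The paired fit of WT, with the replicate number as a block, gave 16. Across named genes the values close to 0 changed sign. For Cpt1a, leaving out 1 sample gave −0.348 to 0.170 in KO against WT spleen, −0.133 to 0.005 in mLN and −0.034 to 0.474 between the organs in WT. For Pnpla2 it gave −0.119 to 0.017 in KO against WT spleen and −0.107 to 0.075 between the organs in WT. Without the red cell libraries the Pnpla2 value in KO against WT spleen was 0.012, and between the organs in WT it was −0.031 with total reads alone and −0.013 when each sample had to hold 10 or more counts. Depth limits Acsl3, Mgll and Ehhadh most, the genes with the fewest reads.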
